A study of Homo sapiens with 12 samples.

Results

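The genes described here are 39 genes that carry DNA replication and the step of the cell cycle before it, the passage from G1 into S phase. They were taken as a fixed list of symbols, and each was read on its brightest probe in the deposited table of log2 intensities. All 39 had a probe with their symbol, and 37 lay above background (a log2 intensity of 6.80) on at least 2 of the 12 arrays and were tested among 11478 genes. The other 2, GINS1, a subunit of the GINS complex of the replicative helicase, and CCNE2, cyclin E2, were above background on 1 and 0 of the 12 arrays and are not described further.

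The RNA came from cells labelled SKBR-3, a human breast tumour line in which ERBB2 is amplified and oestrogen receptor is known to be absent. Each of the 6 groups held 2 arrays: Y15 at 1 µM with lapatinib at 5 µM, PF04554878 at 1 µM with lapatinib at 5 µM, Y15 alone at 1 µM, PF04554878 alone at 1 µM, lapatinib alone at 5 µM, and untreated cells. Treatment lasted 24 hours. Y15 and PF04554878 (defactinib) are inhibitors of focal adhesion kinase (FAK), and lapatinib inhibits the kinases of EGFR and ERBB2. No vehicle is named for the untreated cells, and whether the arrays of a group stem from separate cultures is not stated. The p-values therefore reflect the spread between the 12 arrays alone, which may be technical.

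Replication begins when the origin recognition complex, with CDC6 and CDT1, loads rings of MCM2 to MCM7 onto DNA in G1. In S phase MCM10, CDC45 and GINS turn each ring into an active helicase, the primase and polymerases copy both strands, and the clamp PCNA, loaded by replication factor C (RFC), holds the polymerases in place. Cyclin D with CDK4 and cyclin E with CDK2 release E2F factors from RB, and E2F factors transcribe many of the genes listed here. In HER2-driven cells, signalling through ERBB2 is known to feed into cyclin D1.

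Promoter sequence was available from RefSeq (GRCh38.p14) for 34 of the 39 genes, matched by symbol; MCM4, MCM5, CCND1, CCNE2 and CDK2 were not among them. The 250 bases before each start were searched on both strands for the 4 E2F words TTTCCCGC, TTTGGCGC, TTTCGCGC and TTTGCCGC. At least 1 word stood in 12 of the 34 promoters (35.3%), against 4.61% of the 9247 tested genes with a promoter. The word CCAAT, also read on both strands, stood in 55.9% of the members' promoters and in 35.8% of those of tested genes. The following 5 promoters, 250 bases each and 5′ to 3′ on the gene's strand, are shown because 4 of them hold E2F words (capitals) while the genes moved in different directions, and the last, of the gene with the widest range between groups, holds none. MCM6 lies at chr2:135876444-135876693 (minus strand), MCM7 at chr7:100101398-100101647 (minus), CDT1 at chr16:88803539-88803788 (plus), TYMS at chr18:657403-657652 (plus) and RFC4 at chr3:186806483-186806732 (minus).
MCM6: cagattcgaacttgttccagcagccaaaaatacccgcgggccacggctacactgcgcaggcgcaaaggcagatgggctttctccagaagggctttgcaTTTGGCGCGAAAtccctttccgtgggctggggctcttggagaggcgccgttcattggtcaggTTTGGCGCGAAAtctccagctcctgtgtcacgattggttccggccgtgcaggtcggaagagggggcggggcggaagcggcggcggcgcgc
MCM7: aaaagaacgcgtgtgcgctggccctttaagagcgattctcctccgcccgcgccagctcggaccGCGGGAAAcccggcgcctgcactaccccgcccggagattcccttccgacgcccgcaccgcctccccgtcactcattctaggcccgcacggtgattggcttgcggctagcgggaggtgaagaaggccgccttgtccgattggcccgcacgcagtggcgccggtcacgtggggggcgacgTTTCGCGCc
CDT1: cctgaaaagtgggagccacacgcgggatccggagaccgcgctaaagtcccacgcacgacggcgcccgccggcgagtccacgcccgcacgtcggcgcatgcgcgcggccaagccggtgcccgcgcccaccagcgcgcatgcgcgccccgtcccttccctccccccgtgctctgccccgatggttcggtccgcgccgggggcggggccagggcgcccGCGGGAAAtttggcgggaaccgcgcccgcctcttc
TYMS: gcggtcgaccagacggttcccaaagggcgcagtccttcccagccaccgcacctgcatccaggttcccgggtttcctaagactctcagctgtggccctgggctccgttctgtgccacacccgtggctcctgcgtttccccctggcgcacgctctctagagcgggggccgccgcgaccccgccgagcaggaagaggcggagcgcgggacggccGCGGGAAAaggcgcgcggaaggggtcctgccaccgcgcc
RFC4: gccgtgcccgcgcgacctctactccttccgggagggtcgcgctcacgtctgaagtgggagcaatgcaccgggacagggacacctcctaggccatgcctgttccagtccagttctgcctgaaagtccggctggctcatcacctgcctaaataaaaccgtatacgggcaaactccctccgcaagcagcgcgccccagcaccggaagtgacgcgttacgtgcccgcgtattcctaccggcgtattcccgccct
MCM6 holds 4 words that overlap in pairs, and MCM7 holds 2, the second of which lies 9 to 2 bases before the start. CDT1 and TYMS each hold TTTCCCGC once, on the opposite strand, so that the capitals show its reverse complement. The first MCM7 word and the second word of each MCM6 pair are also on the opposite strand. A match is a description of these letters only.

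Before any comparison, 2 features of the arrays bear on every result. ESR1, which encodes that receptor, gave group means from 9.85 to 10.44, well over the cutoff on all 12 arrays, and this goes against the line named in the labels, so each group is called by its label only. ERBB2 had group means from 8.34 to 9.35, and PTK2, which encodes FAK, from 10.21 to 11.12. The 12 arrays also fell into 3 sets, Y15 with untreated, Y15 plus lapatinib with lapatinib alone, and PF04554878 plus lapatinib with PF04554878 alone. Mean correlation across genes between the 2 groups of a set ran from 0.984 to 0.986, and between groups of different sets from 0.874 to 0.937. In a comparison between sets, treatment and set cannot be told apart, whereas 3 comparisons stay within a set. All 7 luminal epithelial markers were above background in all groups. Of the other cell types, 2 of 4 basal epithelial, 2 of 7 fibroblast, 1 of 5 endothelial, 1 of 6 leukocyte and 1 of 4 adipocyte markers passed the filter. The 2 basal markers were ACTA2 and CDH3, the latter with group means from 8.54 to 9.04. The fibroblast markers that passed were COL1A1 (group means from 6.88 to 7.31) and LUM (6.49 to 6.86), and the endothelial marker was ESAM (6.56 to 7.25). The leukocyte marker was CD68 (7.40 to 8.21) and the adipocyte marker LEP. LEP stood at 7.38 with Y15 plus lapatinib and 6.93 with lapatinib alone, against 7.82 to 8.46 in the other 4 groups. PTPRC, CD3E, PECAM1, VWF and FAP were at background on all 12 arrays. Some markers moved with the sets. ACTA2 stood at 8.79 with Y15 plus lapatinib, 8.81 with PF04554878 plus lapatinib, 7.27 with Y15, 8.87 with PF04554878 and 9.36 with lapatinib alone, against 7.12 in untreated cells, while KRT5 and KRT14 were below background on all 12 arrays. TFF1, an oestrogen receptor target, was below background in both groups of the lapatinib set (6.63 and 6.48) and between 12.63 and 13.73 in the other 4. Of the other oestrogen receptor markers, PGR went the opposite way. It stood at 10.06 with Y15 plus lapatinib and 10.55 with lapatinib alone, against 7.83 to 8.19 in the other 4 groups. GREB1 had group means from 8.81 to 10.10. The part of these markers in the results between sets was not tested.

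Over the 37 tested genes, the arrays labelled PF04554878 plus lapatinib stood at the low end and those labelled Y15 plus lapatinib at the high end. The group mean was lowest with PF04554878 plus lapatinib for 20 of the 37 genes and highest with Y15 plus lapatinib for 13. The same counts were not made over all tested genes, so whether they are particular to these genes is not known. Some ranges between group means were small, such as 0.21 for ORC1 and 0.22 for CDC6. Treatment and set cannot be told apart in such an order of groups. The median level of the genes per array was 9.93 and 9.88 with Y15 plus lapatinib, against 9.73 and 9.60 with lapatinib alone. It was 9.09 and 9.19 with PF04554878 plus lapatinib, against 9.34 and 9.45 with PF04554878 alone. In the remaining pair it was 9.48 and 9.65 with Y15, against 9.72 and 9.51 in untreated cells. The pairs of arrays did not overlap in the first 2 of these contrasts and overlapped in the last. The median of all tested genes lay between 7.75 and 7.79 on every array. Sorted by size, the deposited values lay within 0.0146 of each other between arrays. That median could therefore hardly move, and it is no check on the medians of the 37 genes. In bulk RNA of this kind, fewer cells in S phase and less RNA per cell cannot be told apart.

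**Figure D1:**
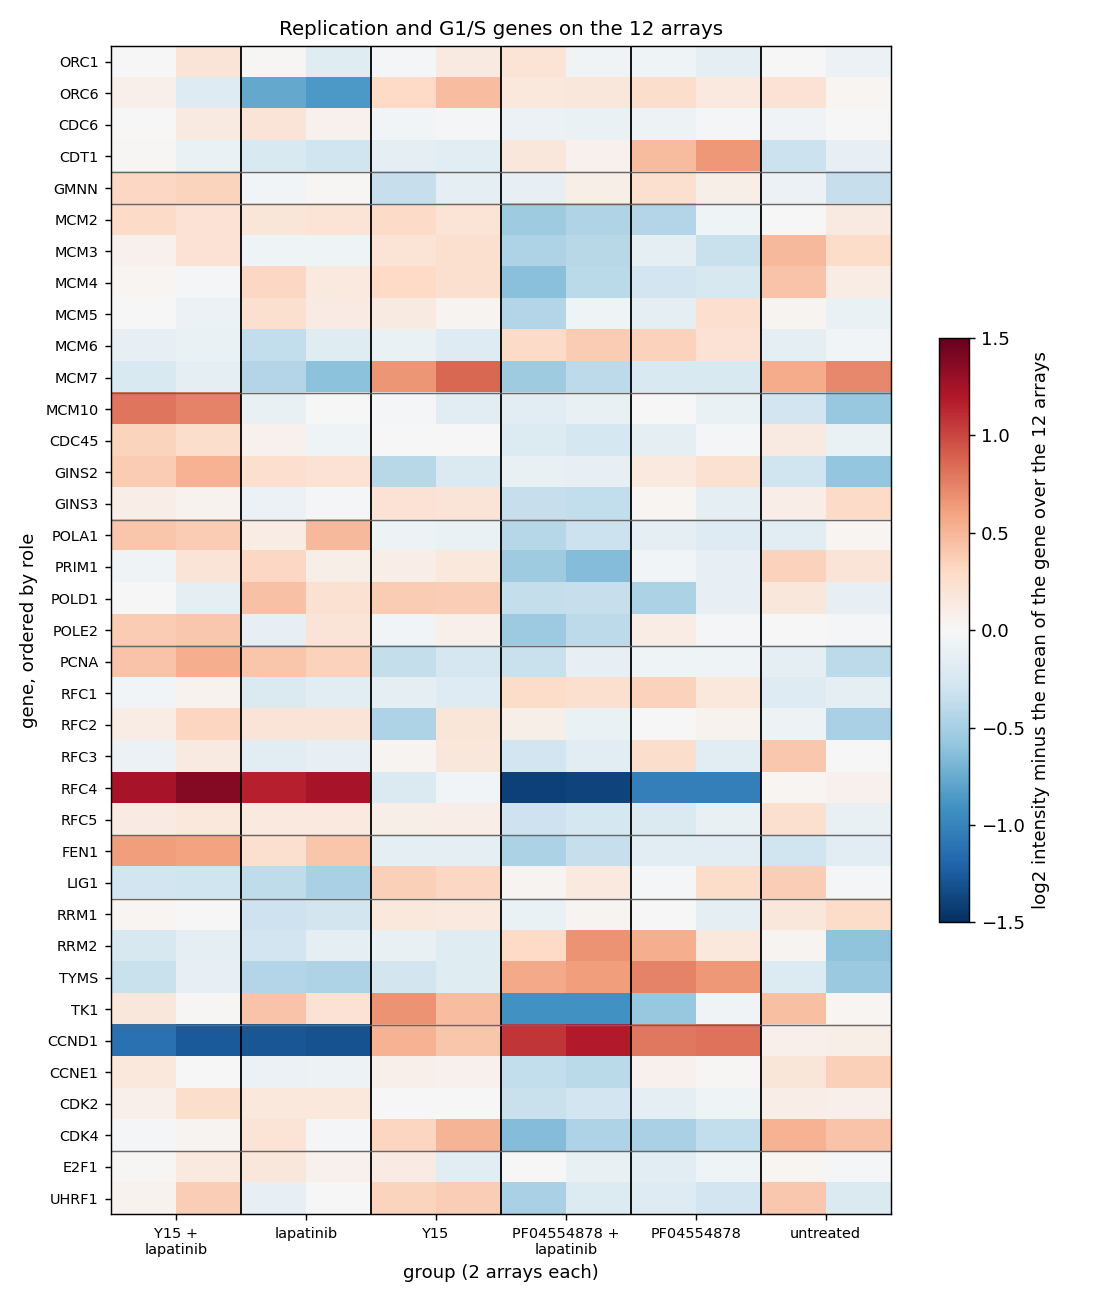
Log2 intensity of each of the 37 tested genes on each of the 12 arrays, as the difference from the gene's own mean over the 12 arrays. Rows are genes ordered by role, columns are arrays in their labelled groups, and RFC4 and CCND1 show the widest ranges between groups, 2.70 and 2.43 log2 units.

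Lapatinib together with PF04554878 was set against PF04554878 alone, a comparison within 1 set of arrays that asks what lapatinib adds to this FAK inhibitor. Of the 37 genes, 6 fell and 1 rose, 7 in all (18.9%, against 8.94% of all tested genes). The share that fell was 16.2%, against 4.81% of all tested genes, and the share that rose was 2.70%, against 4.13%. The median change of the 37 was -0.16, with 30 of 37 values below 0, against a median of -0.01 over all genes.

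POLE2, a subunit of the leading-strand polymerase epsilon, read 7.99 and 8.14 with PF04554878 plus lapatinib, against 8.65 and 8.51 with PF04554878 alone. It was lower on both combination arrays, a log2 change of -0.51 ± 0.11 (SE, adjusted p = 0.0064). PRIM1, the catalytic subunit of primase, read 8.70 and 8.58 with the combination, against 9.19 and 9.11 with PF04554878 alone. The groups did not overlap, and the change was -0.51 ± 0.11 (adjusted p = 0.00781). CCNE1, cyclin E1, read 7.11 and 7.08 with the combination, against 7.55 and 7.50 with PF04554878 alone, and fell by 0.44 ± 0.09 on the log2 scale (adjusted p = 0.00742). CDT1, the factor that brings MCM rings to origins, read 8.55 and 8.44 with the combination, against 8.85 and 9.02 with PF04554878 alone. Its change was -0.44 ± 0.10 (adjusted p = 0.0104), with no overlap between the groups.

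TK1, thymidine kinase of the salvage pathway, stood at 9.09 on both combination arrays, against 9.43 and 9.95 with PF04554878 alone, a change of -0.60 ± 0.16 (adjusted p = 0.0256). RFC4, a subunit of the clamp loader, read 8.29 and 8.31 with the combination and 8.67 on both arrays of PF04554878 alone (-0.37 ± 0.09, adjusted p = 0.0185). CCND1, cyclin D1, moved the other way: 12.69 and 12.80 with the combination, against 12.40 and 12.43 with PF04554878 alone, a rise of 0.33 ± 0.09 (adjusted p = 0.0298). The arrays of the groups compared did not overlap for any of these 7 genes. With 2 arrays against 2 this adds little, since it also held for genes that did not pass, among them ORC1, CDC45 and PCNA. Its share over all tested genes was not counted. The 6 MCM hexamer genes ranged from -0.31 to 0.06, and 0 of them passed limma's test (4 had an unadjusted p under 0.05), and GINS3 missed it at -0.31 ± 0.09 (adjusted p = 0.0540).

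These calls rest on few arrays. Their number was 3 without PF04554878 replicate 1, 3 without PF04554878 replicate 2, 3 without combination replicate 1 and 1 without combination replicate 2, and each of the 7 calls was lost in at least 2 of these 4 fits. With all arrays kept, a fit of these 2 groups only gave 7 calls.

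Y15 together with lapatinib was set against lapatinib alone, again within 1 set. Of the 37 genes, 6 passed the threshold (16.2%, against 11.4% of all tested genes). Of these, 5 rose (13.5%, against 6.12%) and 1 fell (2.70%, against 5.29%). The median change was 0.15, with 28 of 37 values above 0, against 0.01 over all genes.

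MCM10, which helps to activate the loaded helicase, read 9.93 and 9.88 with Y15 plus lapatinib, against 9.02 and 9.13 with lapatinib alone. Both combination arrays were higher than on any other array of the 12, and MCM10 rose by 0.83 ± 0.10 (1.78-fold, adjusted p = 0.000333). A dimmer MCM10 probe stood at 8.11 with the combination and 7.76 with lapatinib alone. ORC6, a subunit of the origin recognition complex, read 13.34 and 13.07 with the combination, against 12.50 and 12.40 with lapatinib alone, and rose by 0.75 ± 0.11 (adjusted p = 0.000868). The low value was that of lapatinib alone, since ORC6 lay between 13.07 and 13.73 on the other 10 arrays. Its second probe, above background on all 12 arrays, did not share this difference: it stood at 8.04 with the combination and 8.05 with lapatinib alone.

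MCM7 read 11.21 and 11.29 with Y15 plus lapatinib, against 10.99 and 10.82 with lapatinib alone (0.35 ± 0.10, adjusted p = 0.0370), while its second probe stood at 8.15 with the combination and 8.17 with lapatinib alone. POLE2 read 8.92 and 8.94 with the combination, against 8.42 and 8.73 with lapatinib alone (0.36 ± 0.11, adjusted p = 0.0400). RRM1, the large subunit of ribonucleotide reductase, which makes deoxynucleotides, read 11.23 and 11.21 with the combination, against 10.89 and 10.93 with lapatinib alone (0.31 ± 0.09, adjusted p = 0.0408). POLD1, the catalytic subunit of polymerase delta, was lower with the combination at 7.58 and 7.44, against 8.02 and 7.81 with lapatinib alone (-0.40 ± 0.12, adjusted p = 0.0474). CDC45 and FEN1 missed the threshold at 0.30 ± 0.10 and 0.29 ± 0.09 (adjusted p = 0.0608 and 0.0599).

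MCM10 and ORC6 passed in every alternative fit tried. The other 4 calls ended with background subtraction and with the replicate number as a block, where 2 members passed. The count was 2 without lapatinib replicate 1, 3 without lapatinib replicate 2, and 2 without either array of Y15 plus lapatinib.

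Y15 alone was set against untreated cells, the third comparison within a set. Here 1 of 37 genes rose and 0 fell by limma's test, with 5 of 37 at an unadjusted p under 0.05, against 5.44% of all genes that passed, 2.94% higher and 2.5% lower. CCND1 read 12.13 and 12.03 with Y15, against 11.69 and 11.70 in untreated cells, a rise of 0.39 ± 0.09 (adjusted p = 0.0231). Both Y15 arrays were above both untreated arrays. The call was lost in a fit of these 2 groups only (adjusted p = 0.141), with array weights (adjusted p = 0.0771), with background subtraction (adjusted p = 0.0886), without untreated replicate 1 (adjusted p = 0.0546) and without either Y15 array (adjusted p = 0.175 and 0.0803). The count of members was 0 without either Y15 array and 2 without untreated replicate 1. MCM10 missed the threshold at 9.10 and 8.97 with Y15, against 8.85 and 8.56 in untreated cells (0.33 ± 0.10, adjusted p = 0.0785). The values of all 37 genes ran from -0.20 to 0.39, with a median of 0.03.

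Whether Y15 did the same with and without lapatinib was tested as an interaction, and 1 of 37 genes passed, 0 positive and 1 negative, against 3.89% of all genes that passed, 1.65% positive and 2.25% negative. Another 11 members had an unadjusted p under 0.05 without passing. POLD1 read 7.96 and 7.95 with Y15, against 7.75 and 7.46 in untreated cells, a difference of 0.35 ± 0.12 (adjusted p = 0.114), and fell when Y15 was added to lapatinib as given above. The interaction was -0.75 ± 0.18 (adjusted p = 0.0309). It was lost with the replicate block (adjusted p = 0.138), with background subtraction (adjusted p = 0.0705) and without any 1 of 6 arrays: untreated replicate 2, either Y15 array, lapatinib replicate 1 and either array of Y15 plus lapatinib (adjusted p from 0.0518 to 0.167). The count of members was 3 without untreated replicate 1 and 2 without untreated replicate 2. MCM10 had an interaction of 0.51 ± 0.15, which did not pass (adjusted p = 0.0635).

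**Figure D2:**
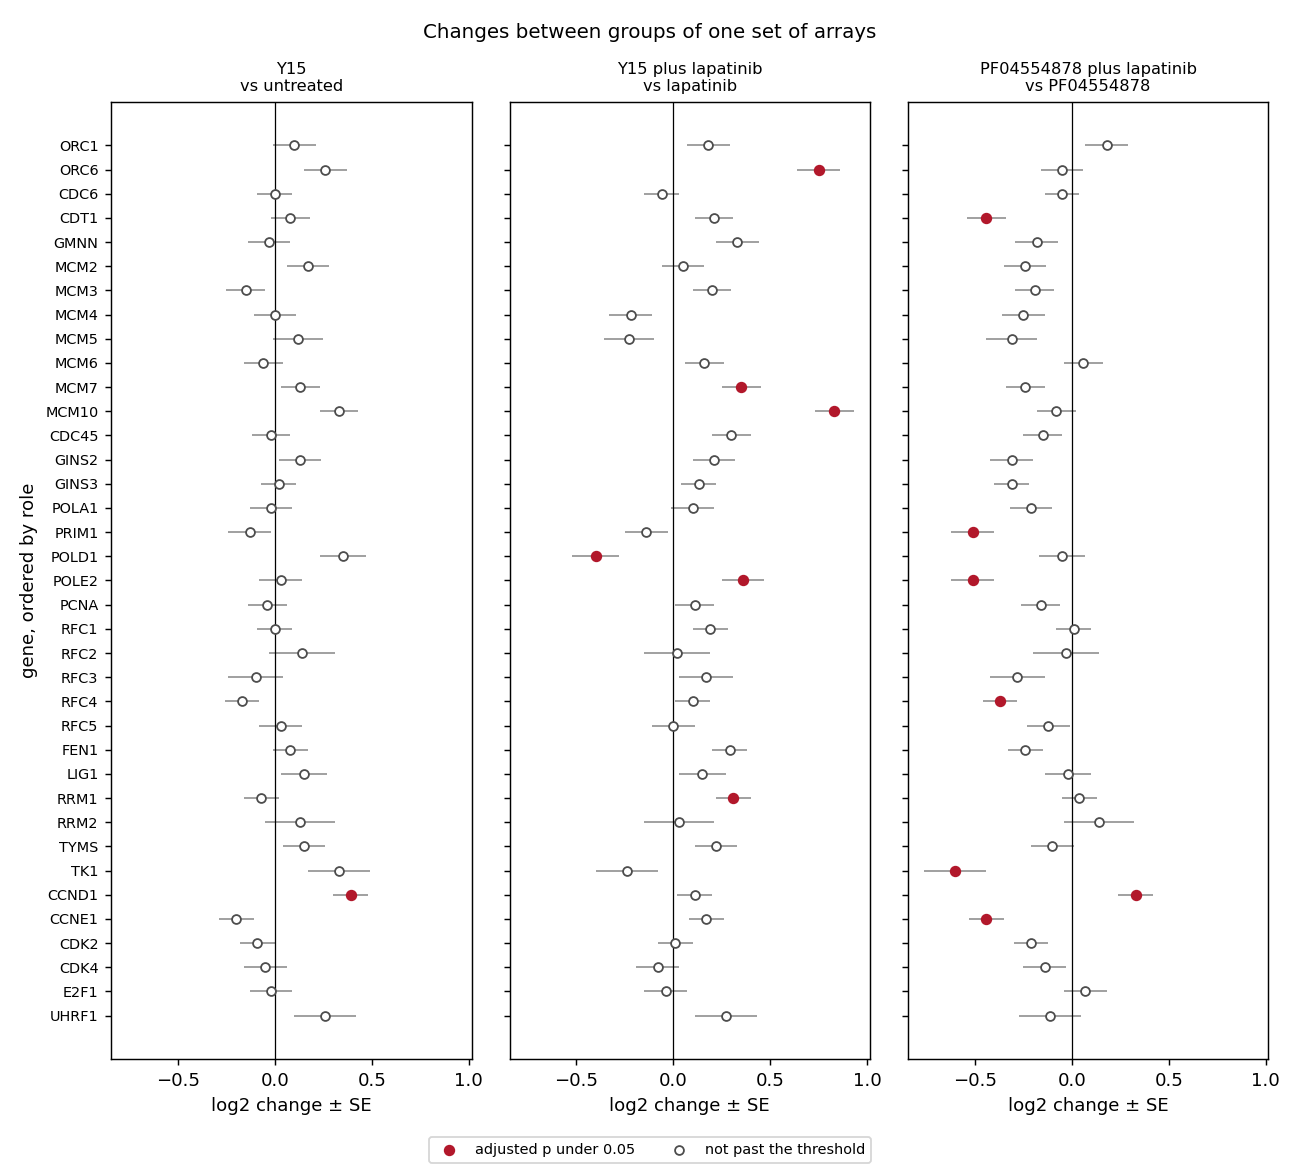
Log2 change ± SE of the 37 tested genes in the 3 comparisons within a set of arrays, with filled points for adjusted p under 0.05 and open points otherwise. With PF04554878 plus lapatinib against PF04554878, 6 filled points lie below 0 and 1 above, while MCM10 at 0.83 is farthest from 0 with Y15 plus lapatinib against lapatinib.

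The comparisons against untreated cells that follow, other than Y15 alone, run between sets of arrays and share the 2 untreated arrays, which were farther apart from each other than those of any other group (root mean square SD of 0.188 over the 37 genes, against 0.0978 to 0.140). They are given role by role with each comparison's own values side by side. With PF04554878 alone 9 of 37 genes rose and 11 fell, against 45.6% of all tested genes that passed, 23.8% higher and 21.7% lower. With lapatinib alone 8 rose and 9 fell, against 56.4% that passed, 28.1% higher and 28.2% lower. With Y15 plus lapatinib 10 rose and 4 fell, against 54.9% that passed, 27.6% higher and 27.3% lower. With PF04554878 plus lapatinib 8 rose and 19 fell, against 46.6% that passed, 23.8% higher and 22.8% lower. As a share of the 37 genes, the falls came to 29.7%, 24.3%, 10.8% and 51.4% in the same order. The falls with PF04554878 plus lapatinib numbered 12 and the rises 5 without its replicate 1, where 17 members passed in all. With PF04554878 alone the 11 falls came to 6 in a fit of the compared groups only and 7 with array weights, against 9 rises in both, and without its replicate 1 there were 5 rises and 8 falls. Its 9 rises came to 6 without untreated replicate 2. The 8 rises with lapatinib alone came to 5 without its replicate 2 and 5 without untreated replicate 2. The 4 falls with Y15 plus lapatinib came to 7 with the mean of a gene's probes, 7 without untreated replicate 2, and 6 with the replicate number as a block and without combination replicate 3.

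Individual calls differed in how they held. With PF04554878 alone, 10 of the 20 passed in every alternative fit: CDT1, MCM3, MCM4, MCM7, GINS2, RFC1, RFC4, TYMS, CCND1 and CDK4. With lapatinib alone 11 of the 17 did: ORC6, MCM3, MCM7, GINS2, PCNA, RFC4, FEN1, LIG1, RRM1, CCND1 and CCNE1. With Y15 plus lapatinib 11 of the 14 did: GMNN, MCM7, MCM10, GINS2, POLA1, POLE2, PCNA, RFC4, FEN1, CCND1 and CDK4. With PF04554878 plus lapatinib 17 of the 27 did: MCM2, MCM3, MCM4, MCM6, MCM7, GINS3, PRIM1, POLE2, RFC1, RFC4, RRM2, TYMS, TK1, CCND1, CCNE1, CDK2 and CDK4. Any other call given below was lost in at least 1 of the 12 alternative fits of its comparison.

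Among the licensing factors, CDT1 was high in the arrays with PF04554878. It read 8.55 and 8.44 with PF04554878 plus lapatinib, 8.85 and 9.02 with PF04554878 alone, 8.15 and 8.08 with lapatinib alone, and 8.05 and 8.25 in untreated cells. CDT1 rose by 0.79 ± 0.10 with PF04554878 alone (adjusted p = 9.78e-06) and by 0.34 ± 0.10 with the combination (adjusted p = 0.00916). GMNN, geminin, the inhibitor that binds CDT1, rose by 0.54 ± 0.11 with Y15 plus lapatinib (9.41 and 9.43, against 9.01 and 8.76 in untreated cells, adjusted p = 0.000712). It rose by 0.38 ± 0.11 with PF04554878 alone (adjusted p = 0.0109). ORC6 fell by 0.93 ± 0.11 with lapatinib alone on its brightest probe (adjusted p = 2.85e-06), against a difference of -0.15 on its other probe. ORC1 passed in 0 of the 10 comparisons by limma's test and in 0 at an unadjusted p under 0.05, with values from -0.06 to 0.22. CDC6 lay near background, between 6.70 and 6.99, and was above it on 4 of the 12 arrays.

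The 6 subunits of the MCM hexamer, which form 1 ring with a copy of each, did not move together. MCM7 read 11.21 and 11.29 with Y15 plus lapatinib, 10.90 and 11.04 with PF04554878 plus lapatinib, 11.21 on both arrays of PF04554878 alone, 10.99 and 10.82 with lapatinib alone, and 11.99 and 12.15 in untreated cells. It was lower than untreated in all 4 of these groups with no overlap. The fall was 1.17 ± 0.10 with lapatinib alone (adjusted p = 1.13e-07), 1.10 ± 0.10 with PF04554878 plus lapatinib, 0.86 ± 0.10 with PF04554878 alone and 0.82 ± 0.10 with Y15 plus lapatinib. A second MCM7 probe, above background on all 12 arrays, stood between 7.88 and 8.17 in these 4 groups, against 9.03 in untreated cells.

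MCM6, whose promoter is among those shown above, was higher in the arrays with PF04554878. It averaged 11.04 ± 0.07 with PF04554878 plus lapatinib (SD, n = 2) and read 11.05 and 10.92 with PF04554878 alone, against 10.57 and 10.67 in untreated cells. MCM6 rose by 0.42 ± 0.10 with the combination (adjusted p = 0.00203) and by 0.36 ± 0.10 with PF04554878 alone (adjusted p = 0.00596). MCM3 read 11.36 and 11.40 with PF04554878 plus lapatinib, 11.67 and 11.48 with PF04554878 alone, 11.75 and 11.76 with lapatinib alone, and 12.30 and 12.10 in untreated cells. It fell in these 3 groups, by 0.82 ± 0.10, 0.62 ± 0.10 and 0.44 ± 0.10. MCM4 read 10.05 and 10.27 with PF04554878 plus lapatinib and 10.39 and 10.44 with PF04554878 alone, against 11.10 and 10.79 in untreated cells, with falls of 0.78 ± 0.11 and 0.53 ± 0.11. MCM2 read 9.23 and 9.32 with PF04554878 plus lapatinib and 9.33 and 9.70 with PF04554878 alone, against 9.77 and 9.90 in untreated cells (-0.56 ± 0.11 and -0.32 ± 0.11). MCM5, between 8.75 and 9.45 on the 12 arrays, passed in 0 of these 4 comparisons by limma's test and in 0 at an unadjusted p under 0.05, with values from -0.23 to 0.20.

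**Figure D3:**
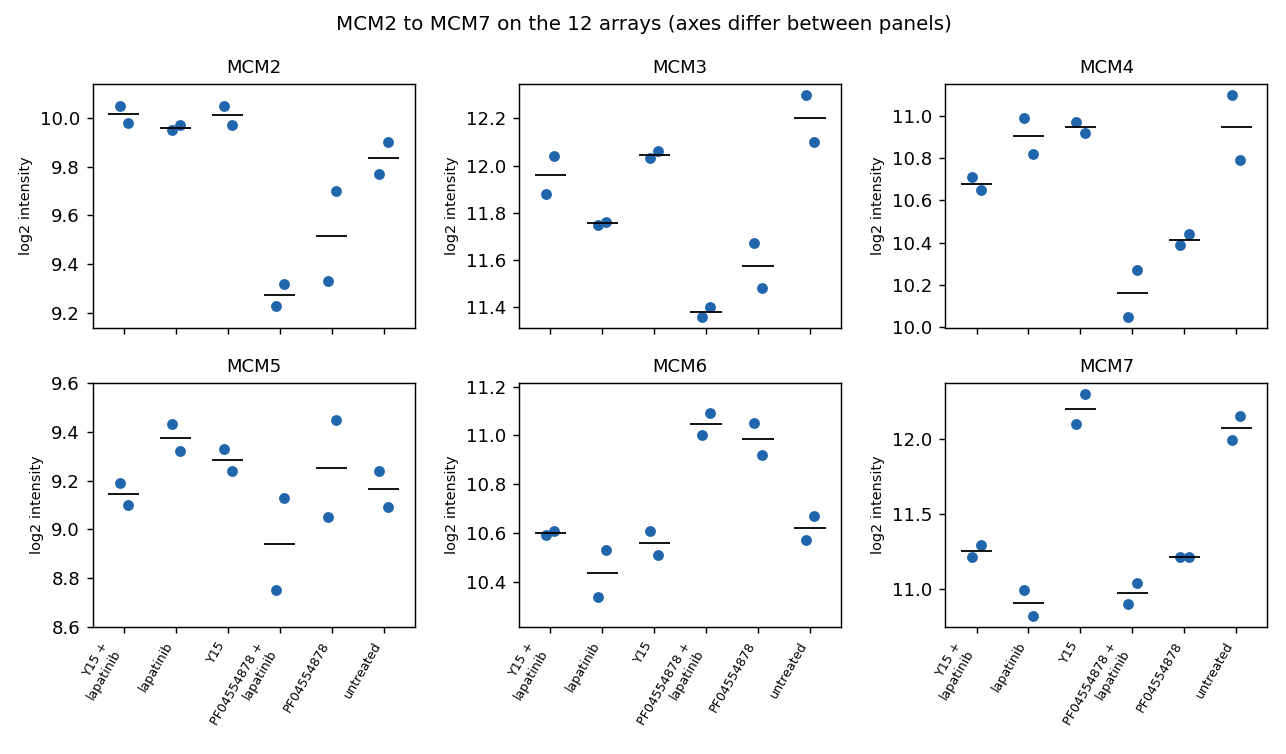
Log2 intensity of MCM2 to MCM7 on each of the 12 arrays, 2 points per labelled group with a line at their mean, and a separate axis for each gene. MCM7 stands at 11.99 or above on the 4 arrays labelled Y15 or untreated and at or below 11.29 on the other 8, whereas MCM6 is highest on the 4 arrays with PF04554878.

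Of the genes that turn the ring into a helicase, MCM10 rose by 1.20 ± 0.10 with Y15 plus lapatinib against untreated (2.30-fold, adjusted p = 9.82e-08) and by 0.37 ± 0.10 with lapatinib alone (adjusted p = 0.00679). With PF04554878, MCM10 rose by 0.37 ± 0.10 alone and by 0.29 ± 0.10 in combination on its brightest probe, while its second probe differed by -0.12 and -0.16. Both MCM10 calls were lost with the mean of its probes, and in 3 and 7 of 12 alternative fits in all. GINS2 read 11.25 and 11.39 with Y15 plus lapatinib, 10.75 and 10.74 with PF04554878 plus lapatinib, 11.01 and 11.09 with PF04554878 alone, 11.12 and 11.08 with lapatinib alone, and 10.56 and 10.28 in untreated cells. All 4 groups were above untreated, by 0.90 ± 0.11 with Y15 plus lapatinib (adjusted p = 3.07e-06) and by 0.32 ± 0.11 with PF04554878 plus lapatinib (adjusted p = 0.0205). The rise in GINS2 was 0.63 ± 0.11 with PF04554878 alone and 0.68 ± 0.11 with lapatinib alone. GINS3, another GINS subunit, fell by 0.56 ± 0.09 with PF04554878 plus lapatinib (7.56 and 7.54, against 8.01 and 8.20 in untreated cells, adjusted p = 0.000159). The GINS2 call with this combination was lost in 5 of 12 alternative fits and stood at 0.19 without untreated replicate 2 (adjusted p = 0.198). GINS3 also differed by -0.25 ± 0.09 with PF04554878 alone and by -0.26 ± 0.09 with lapatinib alone, calls lost in 7 and 5 of 12 fits. CDC45, which joins MCM and GINS in the helicase, differed by 0.28 ± 0.10 with Y15 plus lapatinib (adjusted p = 0.0242) and by -0.26 ± 0.10 with PF04554878 plus lapatinib (adjusted p = 0.0431). These CDC45 calls were lost in 7 and 8 of 12 alternative fits, at 0.16 without untreated replicate 2 and -0.13 without untreated replicate 1.

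Among polymerase genes, PRIM1 read 8.70 and 8.58 with PF04554878 plus lapatinib and 9.57 and 9.42 in untreated cells, a fall of 0.85 ± 0.11 (adjusted p = 1.12e-05). Its second probe stood at 8.57 with the combination and 9.51 in untreated cells. With PF04554878 alone, PRIM1 fell by 0.34 ± 0.11. POLA1, the catalytic subunit of polymerase alpha, rose by 0.47 ± 0.11 with Y15 plus lapatinib (8.99 and 8.96, against 8.41 and 8.61 in untreated cells) and fell by 0.30 ± 0.11 with PF04554878 plus lapatinib (8.15 and 8.26, adjusted p = 0.0397). It rose by 0.37 ± 0.11 with lapatinib alone. POLE2 rose by 0.41 ± 0.11 with Y15 plus lapatinib and fell by 0.46 ± 0.11 with PF04554878 plus lapatinib (adjusted p = 0.00438 and 0.00215). POLD1 differed by -0.37 ± 0.12 with PF04554878 plus lapatinib, by -0.32 ± 0.12 with PF04554878 alone, where the arrays overlapped, and by 0.31 ± 0.12 with lapatinib alone. These POLD1 calls were lost in 3, 6 and 7 of 12 alternative fits. The last 2 stood at -0.14 without PF04554878 replicate 1 and at 0.17 without untreated replicate 2.

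RFC4 moved more than any other member, and in both directions. It read 10.93 and 11.07 with Y15 plus lapatinib, 8.29 and 8.31 with PF04554878 plus lapatinib, 8.67 on both arrays of PF04554878 alone, 10.86 and 10.93 with lapatinib alone, and 9.72 and 9.76 in untreated cells. The groups did not overlap with untreated in any of these 4 cases. RFC4 rose by 1.26 ± 0.09 with Y15 plus lapatinib (adjusted p = 1.29e-08) and by 1.16 ± 0.09 with lapatinib alone. It fell by 1.44 ± 0.09 with PF04554878 plus lapatinib (2.71-fold, adjusted p = 6.22e-09) and by 1.07 ± 0.09 with PF04554878 alone. A second RFC4 probe stood at 10.66, 8.40, 8.55 and 10.60 in the same groups and at 9.43 in untreated cells. The other 4 clamp loader genes kept to changes between -0.43 and 0.49: RFC1 rose with PF04554878 alone (0.41 ± 0.09) and in combination (0.42 ± 0.09), RFC2 rose with Y15 plus lapatinib (0.49 ± 0.17) and lapatinib alone (0.47 ± 0.17), and RFC3 (-0.43 ± 0.14) and RFC5 (-0.36 ± 0.11) fell with PF04554878 plus lapatinib. Of the 2 further RFC3 probes, the one above background on all 12 arrays differed there by -0.66 and the one above background on 6 arrays by 0.03. The second RFC2 probe, above background on all 12 arrays, differed from untreated by 0.02 with Y15 plus lapatinib and 0.08 with lapatinib alone.

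PCNA, the clamp itself, read 10.92 and 11.03 with Y15 plus lapatinib, 10.91 and 10.83 with lapatinib alone, and 10.34 and 10.10 in untreated cells, rises of 0.76 ± 0.10 and 0.65 ± 0.10. Its values with PF04554878, alone or in combination, differed from untreated by 0.20 and 0.04 and did not pass. FEN1, the nuclease that trims Okazaki fragments, read 11.87 and 11.85 with Y15 plus lapatinib, 11.49 and 11.66 with lapatinib alone, and 10.95 and 11.09 in untreated cells (0.84 ± 0.09 and 0.56 ± 0.09). LIG1, the ligase that seals the same fragments, was lower in these groups: 8.06 and 8.05 with Y15 plus lapatinib and 7.96 and 7.86 with lapatinib alone, against 8.71 and 8.33 in untreated cells (-0.47 ± 0.12 and -0.61 ± 0.12).

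Against untreated cells, the nucleotide genes went both ways in the 2 groups with PF04554878. TYMS, thymidylate synthase of the de novo pathway, read 11.35 and 11.41 with PF04554878 plus lapatinib, 11.53 and 11.44 with PF04554878 alone, 10.35 and 10.33 with lapatinib alone, and 10.58 and 10.23 in untreated cells. TYMS rose by 1.08 ± 0.11 with PF04554878 alone (2.11-fold, adjusted p = 1.44e-06) and by 0.97 ± 0.11 in combination (adjusted p = 3.88e-06). TK1, which supplies the same nucleotide by salvage, read 9.09 on both arrays of PF04554878 plus lapatinib and 9.43 and 9.95 with PF04554878 alone, against 10.45 and 10.03 in untreated cells. It fell by 1.15 ± 0.16 with the combination (adjusted p = 2.23e-05) and by 0.55 ± 0.16 with PF04554878 alone (adjusted p = 0.0101). Of the subunits of ribonucleotide reductase, RRM2 rose by 0.77 ± 0.18 with PF04554878 plus lapatinib. RRM1 differed there by -0.24 ± 0.09 (adjusted p = 0.0385), a call lost in 7 of 12 alternative fits. RRM2 also rose by 0.63 ± 0.18 with PF04554878 alone, and RRM1 fell by 0.29 ± 0.09 with PF04554878 alone and by 0.51 ± 0.09 with lapatinib alone. RRM2 read 9.32 and 9.69 with that combination, against 9.06 and 8.41 in untreated cells.

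CCND1 separated the sets most plainly among the cyclins. It read 10.50 and 10.36 with Y15 plus lapatinib, 12.69 and 12.80 with PF04554878 plus lapatinib, 12.40 and 12.43 with PF04554878 alone, 10.33 and 10.31 with lapatinib alone, and 11.69 and 11.70 in untreated cells. CCND1 fell by 1.37 ± 0.09 with lapatinib alone (2.59-fold, adjusted p = 3.82e-09) and by 1.26 ± 0.09 with Y15 plus lapatinib (adjusted p = 1.02e-08). It rose by 1.05 ± 0.09 with PF04554878 plus lapatinib (adjusted p = 1.53e-07) and by 0.72 ± 0.09 with PF04554878 alone. The 2 groups that received lapatinib with a FAK inhibitor thus lay on opposite sides of the untreated arrays.

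CDK4, the kinase that cyclin D1 activates, was lower than untreated in all 4 groups. It read 11.54 and 11.62 with Y15 plus lapatinib, 10.92 and 11.11 with PF04554878 plus lapatinib, 11.09 and 11.21 with PF04554878 alone, 11.78 and 11.54 with lapatinib alone, and averaged 12.05 ± 0.07 in untreated cells (SD, n = 2). The falls ran from 1.03 ± 0.11 with PF04554878 plus lapatinib (adjusted p = 1.54e-06) to 0.38 ± 0.11 with lapatinib alone (adjusted p = 0.00683), with 0.90 ± 0.11 for PF04554878 alone and 0.47 ± 0.11 for Y15 plus lapatinib. CCNE1 fell by 0.66 ± 0.09 with PF04554878 plus lapatinib (7.11 and 7.08, against 7.66 and 7.84 in untreated cells) and by 0.35 ± 0.09 with lapatinib alone (7.39 and 7.41). CDK2, its partner, fell by 0.40 ± 0.09 with PF04554878 plus lapatinib (adjusted p = 0.00161) and differed by -0.19 to 0.08 in the other groups.

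E2F1, an E2F family member that RB restrains, read between 6.87 and 7.22 on the 12 arrays, close to background. It passed in 0 of the 10 comparisons by limma's test, with 0 at an unadjusted p under 0.05. UHRF1, which reads methylated DNA behind the fork, fell by 0.44 ± 0.16 with PF04554878 plus lapatinib (9.93 and 10.21, against 10.82 and 10.20 in untreated cells, adjusted p = 0.0351), where the arrays overlapped. The UHRF1 call was lost in 5 of 12 alternative fits and stood at -0.13 without untreated replicate 1. Genes with an E2F word in the 250 bases before the start went both ways, and so did the tested genes without one. The split depends on that window. CDC6, MCM2, GINS3 and POLE2 count as without a word, but hold 1 or 2 once the 50 bases after the start are added. Rises and falls were not counted for the wider window. With PF04554878 alone, 4 of 12 genes with a word rose and 2 fell, and 4 of 21 without a word rose and 8 fell, where 23.8% of all tested genes rose and 21.7% fell. With lapatinib alone it was 3 and 3 of 12 with a word and 5 and 5 of 21 without. For Y15 plus lapatinib it was 3 rises and 2 falls of 12, and 7 rises and 1 fall of 21. With PF04554878 plus lapatinib it was 4 rises and 5 falls of 12, and 3 rises and 12 falls of 21.

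**Figure D4:**
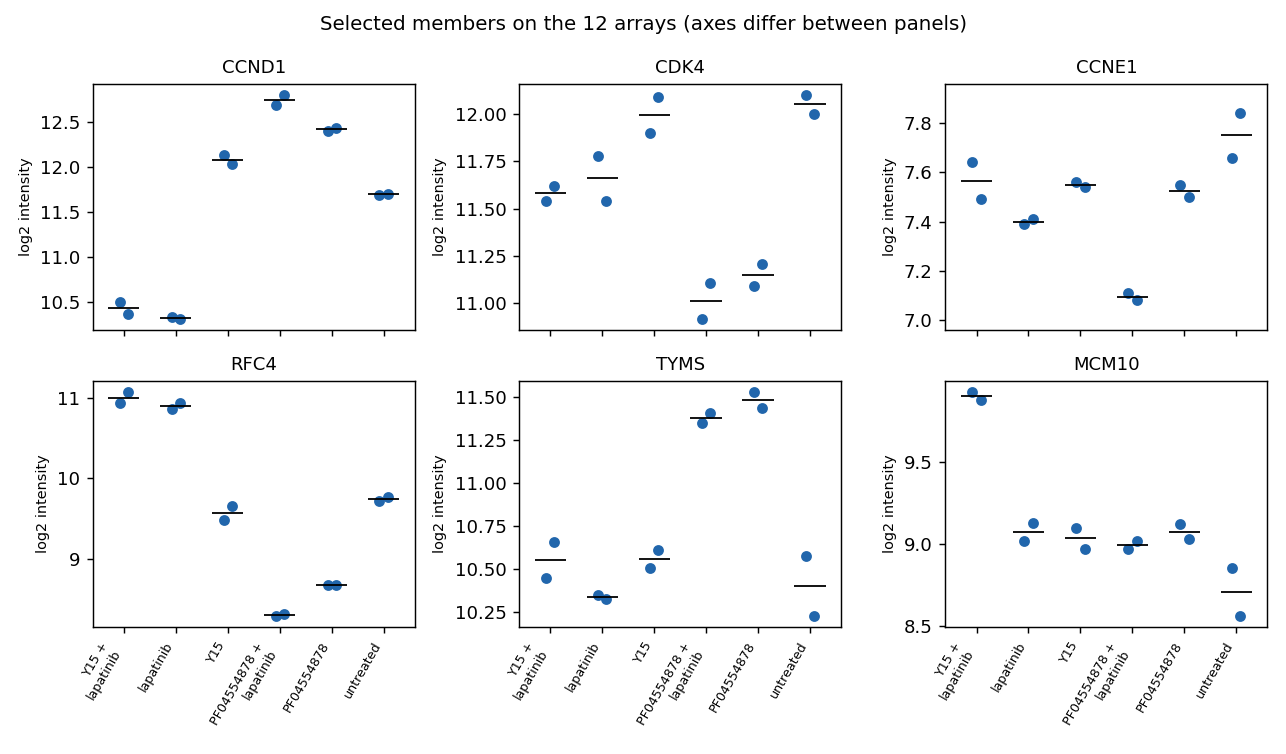
Log2 intensity of CCND1, CDK4, CCNE1, RFC4, TYMS and MCM10 on each of the 12 arrays, 2 points per labelled group with a line at their mean, and a separate axis for each gene. CCND1 lies between 10.31 and 10.50 on the 4 arrays of the lapatinib set and between 12.40 and 12.80 on the 4 arrays with PF04554878, RFC4 shows the reverse order, and MCM10 is highest with Y15 plus lapatinib.

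The FAK inhibitors Y15 and PF04554878 were given at the same dose, 1 µM, for the same time, and were compared directly across sets, 1 pair of compounds with p-values adjusted over all genes. Of the 37 genes, 10 were higher with Y15 and 8 lower, against 47.8% of all tested genes that passed, 23.1% higher and 24.7% lower. MCM7 read 12.10 and 12.30 with Y15, against 11.21 on both arrays of PF04554878 (0.99 ± 0.10, adjusted p = 1.28e-06). RFC4 was higher with Y15 at 9.48 and 9.65, against 8.67 on both arrays of PF04554878 (0.89 ± 0.09, adjusted p = 1.03e-06). CDK4 was higher by 0.84 ± 0.11 (11.90 and 12.09 with Y15, against 11.09 and 11.21 with PF04554878, adjusted p = 1.22e-05). TYMS was lower with Y15, 10.51 and 10.61, against 11.53 and 11.44 with PF04554878 (-0.93 ± 0.11, adjusted p = 6.28e-06). These 4 differences showed no overlap between arrays, which was also true of genes that did not pass, such as ORC1 and PRIM1. The other genes higher with Y15 were TK1 (0.88 ± 0.16), POLD1 (0.67 ± 0.12), UHRF1 (0.59 ± 0.16), MCM4 (0.53 ± 0.11), MCM2 (0.50 ± 0.11), MCM3 (0.47 ± 0.10) and GINS3 (0.27 ± 0.09). Those lower with Y15 were CDT1 (-0.71 ± 0.10), GINS2 (-0.50 ± 0.11), RRM2 (-0.50 ± 0.18), MCM6 (-0.43 ± 0.10), RFC1 (-0.42 ± 0.09), GMNN (-0.41 ± 0.11) and CCND1 (-0.34 ± 0.09). Of the 18 calls, 14 passed in every alternative fit, and those of GMNN, GINS3, RRM2 and CCND1 did not.

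The other 19 genes did not pass between Y15 and PF04554878. The 95% interval of the difference was -0.26 to 0.17 for MCM10, -0.25 to 0.20 for POLE2, -0.17 to 0.22 for both CCNE1 and FEN1, and -0.46 to -0.02 for PCNA. It was widest for RFC2, at -0.52 to 0.19. Missing the threshold does not show that the inhibitors act alike on these genes.

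Whether lapatinib did the same with and without PF04554878 was tested as an interaction, which also runs between sets. It passed for 16 of 37 genes, 5 positive and 11 negative, and in every alternative fit for 8 of them (MCM7, GINS2, POLE2, PCNA, RFC4, FEN1, RRM1 and CCND1), against 45.4% of all tested genes that passed, 22.3% positive and 23.1% negative. CCND1 had the largest positive value, 1.70 ± 0.13 (adjusted p = 3.78e-08), with a change of 0.33 when lapatinib joined PF04554878 and of -1.37 when it was given alone. RFC4 had the largest negative value, -1.53 ± 0.13 (adjusted p = 1.55e-07), with changes of -0.37 and 1.16. GINS2 followed at -0.99 ± 0.15 (adjusted p = 6.22e-05) and MCM7 at 0.92 ± 0.14 (adjusted p = 9.01e-05).

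**Figure D5:**
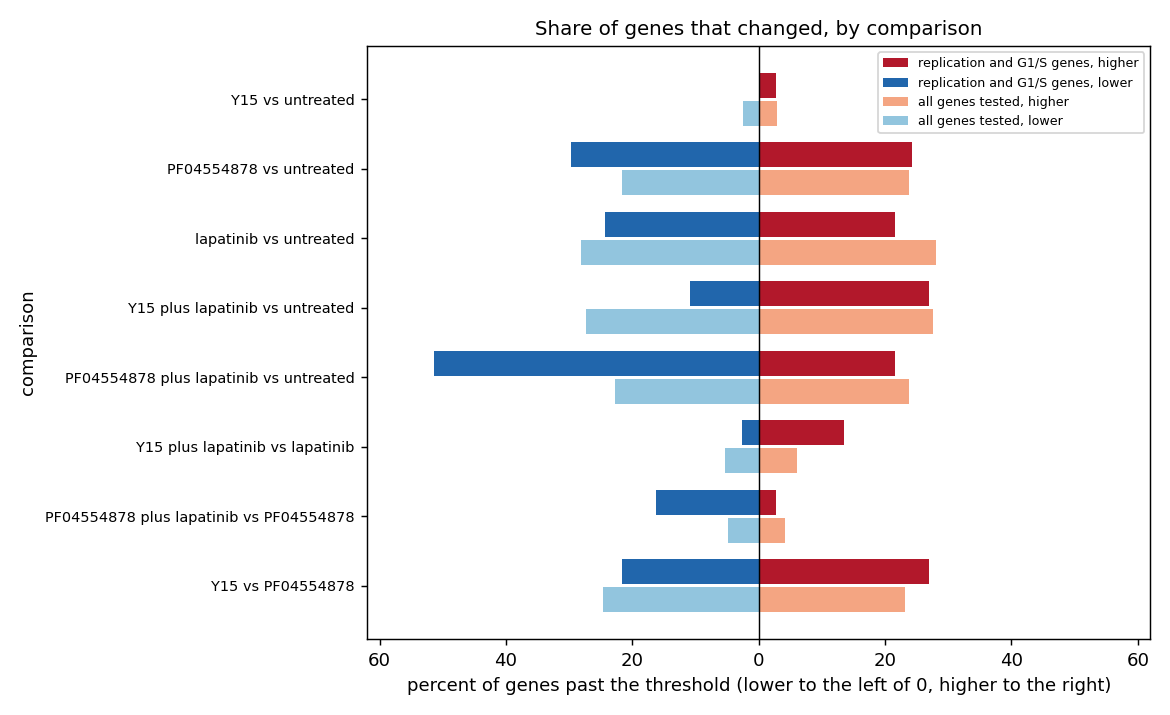
Percent of the 37 replication and G1/S genes (dark bars) and of all 11478 tested genes (pale bars) that passed the threshold in each of 8 comparisons, lower to the left of 0 and higher to the right. The longest dark bar is the 51.4% of members that fell with PF04554878 plus lapatinib against untreated cells, where 22.8% of all genes fell.

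Other genes of the pathway were read from lists in the same way. The shares over all tested genes are those given above, 4.13% higher and 4.81% lower with PF04554878 plus lapatinib against PF04554878 alone, and 6.12% higher and 5.29% lower with Y15 plus lapatinib against lapatinib alone. Of 33 further replisome factors, 1 rose (3.03%) and 4 fell (12.1%) with PF04554878 plus lapatinib against PF04554878 alone, with POLE4, a polymerase epsilon subunit, at -0.57 ± 0.10 (adjusted p = 0.00203) and DSCC1, part of an alternative clamp loader, at -0.51 ± 0.09 (adjusted p = 0.00269). Their median was -0.14. With Y15 plus lapatinib against lapatinib alone, 6 of the 33 rose (18.2%) and 1 fell (3.03%), with MCM8, an MCM relative used in repair, at 0.82 ± 0.13 (adjusted p = 0.00162) and TOP2A, which untangles copied DNA, at 0.49 ± 0.09 (adjusted p = 0.0046), and a median of 0.12. With Y15 against untreated, 0 of the 33 passed by limma's test and 6 had an unadjusted p under 0.05. The counts came to 2 to 4 for both of the first comparisons when 1 array was left out.

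Among 20 genes of replication-coupled chromatin and repair, 5 rose (25.0%) and 0 fell with Y15 plus lapatinib against lapatinib alone by limma's test (11 at an unadjusted p under 0.05), with a median of 0.21. PCLAF, a PCNA-binding factor, rose by 0.54 ± 0.11 (adjusted p = 0.00672) and BRCA1 by 0.41 ± 0.10 (adjusted p = 0.0146). That count came to 0 to 2 when 1 array was left out. With PF04554878 plus lapatinib against PF04554878 alone, 0 of the 20 rose and 1 fell (5.00%, near the 4.81% of all genes), the histone chaperone ASF1B (-0.38 ± 0.10, adjusted p = 0.0228). Of 16 genes of nucleotide supply, 1 rose (6.25%) and 0 fell in that comparison, RRM2B, a ribonucleotide reductase subunit known as a p53 target (0.60 ± 0.13, adjusted p = 0.00888). With Y15 plus lapatinib against lapatinib alone, 1 of the 16 rose, DCTPP1 (0.42 ± 0.10), which breaks down modified nucleotides, and 1 fell, SHMT2 (-0.29 ± 0.08), a mitochondrial enzyme of folate metabolism, and 0 passed when any 1 array of these groups was left out.

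Among 28 further cyclins, kinases and E2F or RB regulators, 0 rose and 3 fell with PF04554878 plus lapatinib against PF04554878 alone, 10.7% that passed against 8.94% of all genes. CDK6, a second cyclin D kinase, was below background with the combination (mean 6.75) and stood at 7.21 with PF04554878 alone, so that it was at least 1.32-fold lower (adjusted p = 0.00313), and E2F7, a repressor E2F, fell by 0.55 ± 0.11 (adjusted p = 0.00576). With Y15 plus lapatinib against lapatinib alone, 2 of the 28 rose and 2 fell, 14.3% that passed against 11.4% of all genes, including E2F2 (0.58 ± 0.08, adjusted p = 0.000779), an activator E2F, and CDKN2A (-0.52 ± 0.09, adjusted p = 0.00181), which encodes inhibitors of CDK4 and of MDM2. With 1 array left out these counts came to 1 to 3 of 28 and 2 to 3 of 28. CDKN2A stood at 8.18 with lapatinib alone and was below background in untreated cells (mean 6.46), so that it was at least 2.59-fold higher with lapatinib alone (adjusted p = 1.82e-10). TFDP1, the dimer partner of E2F factors, rose by 1.77 ± 0.13 in the same comparison (adjusted p = 1.3e-08). In all, 7 of the 28 rose there and 9 fell, with values from -2.66 to 1.77. The share that passed was 57.1%, near the 56.4% of all genes. With PF04554878 plus lapatinib against untreated, CDKN1A, the inhibitor p21, rose by 1.88 ± 0.19 (adjusted p = 7.83e-07) and RBL2, an RB relative, fell by 1.13 ± 0.11 (adjusted p = 5.68e-07). There 8 of the 28 rose and 10 fell, 64.3% that passed against 46.6% of all genes. Both comparisons with untreated cells run between sets, so treatment and set cannot be told apart in them.

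Of 28 genes of G2 and mitosis, 0 rose and 6 fell with PF04554878 plus lapatinib against PF04554878 alone (median -0.14), a share of 21.4% that fell against 4.81% of all genes. BIRC5, survivin, fell by 0.98 ± 0.10 (adjusted p = 2.46e-05) and CCNB2, cyclin B2, by 0.50 ± 0.10 (adjusted p = 0.00412). With Y15 plus lapatinib against lapatinib alone, 7 of the 28 rose and 1 fell (median 0.25), shares of 25.0% and 3.57% against 6.12% and 5.29% of all genes. CENPE, a motor protein of the kinetochore, rose by 0.94 ± 0.11 (adjusted p = 0.000299), and BIRC5 fell by 0.63 ± 0.10 (adjusted p = 0.00193). When 1 array was left out the counts came to 2 to 4 and 4 to 6. With Y15 against untreated, 1 gene passed in each list other than the replisome: NME1 (-0.41 ± 0.10), RBL2 (-0.59 ± 0.11), ASF1B (0.43 ± 0.10) and BIRC5 (-0.54 ± 0.10). These are 3.57% to 6.25% of their lists, near the 5.44% of all genes, and each list's count came to 0 when some single array was left out.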

How the data were processed

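Total RNA from 12 samples was labelled with biotin and read on Illumina arrays, per the labels' protocols. The log2 intensities were used as deposited by the authors in their processed table. GenomeStudio appears in the submitters' processing notes, but how background was handled and how arrays were normalized is not given in the sources used here. Sorted by size, values of different arrays lay within 0.0146 of each other, and they ran from 6.20 to 13.90, so folds of dim genes are compressed. Another 24 per-sample columns of raw signals and detection p-values match no label and were not used. The number of arrays limits the precision.

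Background was set at the mode of all values (6.55) plus 3 times the root mean square distance of lower values from it (0.0838), a cutoff of 6.80. Of 47318 probes, 30111 had 1 gene symbol in the platform annotation, 8 several and 17199 none, and updating symbols through gene numbers changed 0 of 59 member probes. Probes above the cutoff on at least 2 arrays were kept, and each gene was read on its brightest kept probe by the mean of all 12 arrays. Where a gene stayed under the cutoff throughout a group, the fold is the other group's mean against the cutoff, a lower bound.

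Means of the 6 groups were fitted to all 11478 genes in R 4.3.3 by lmFit and eBayes of limma 3.58.1 (6 residual and 9.15 prior degrees of freedom), with Benjamini-Hochberg adjusted p-values over all genes within each of 10 comparisons and a threshold of 0.05. The fit was tested on simulated data. Errors are standard errors. Differences are the first-named group minus the second, and an interaction is the combination minus the FAK inhibitor minus lapatinib plus untreated. Every member was accounted for, and values are printed in full for the 4 members with the smallest adjusted p in each comparison and for the MCM hexamer, cyclin and E2F genes, while of each further list up to 3 genes with the smallest adjusted p are named. The members and lists were chosen with earlier results of these data known. Alternatives were 2 other filters, the mean of a gene's probes, background subtraction with an offset of 32, array weights, an intensity trend, a fit restricted to the groups compared, a block for the replicate number, and each array left out.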

Additional observations from a re-analysis of the deposited data

Results flagged for a closer look

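The results here are effects that differed between settings by the test of the difference itself, an interaction in limma's fit with p-values adjusted over all genes. For the effect of Y15 with and without lapatinib, POLD1 had an interaction of -0.75. It was the only member to pass, 2.70% of the 37 genes, against 3.89% of all tested genes. For the effect of lapatinib with and without PF04554878, 5 members had positive values: CCND1 at 1.70, MCM7 at 0.92, ORC6 at 0.89, LIG1 at 0.59 and RRM1 at 0.56. In that test 16 of the 37 members passed (43.2%), near the 45.4% of all tested genes. The positive share was 13.5%, against 22.3% of all genes, and the negative share 29.7%, against 23.1%. The negative values were those of 11 members. RFC4 stood at -1.53, GINS2 at -0.99, PCNA at -0.81, FEN1 at -0.79 and TK1 at -0.70. POLA1 stood at -0.58, POLE2 at -0.56, MCM5 at -0.52, MCM10 and PRIM1 at -0.45 and CDT1 at -0.41. The interactions with PF04554878 set a difference within a set of arrays against one between sets, so treatment and set cannot be told apart in them. Of the 16 interactions with PF04554878, 8 passed in every alternative fit: those of CCND1, MCM7, RRM1, RFC4, GINS2, PCNA, FEN1 and POLE2. With the mean of its probes the ORC6 value became 0.34 (adjusted p = 0.0777) and the MCM10 value -0.36 (adjusted p = 0.101). MCM5 was lost in 8 of 16 alternative fits and stood at -0.32 without PF04554878 replicate 2 (adjusted p = 0.189). CDT1, MCM10 and PRIM1 were lost in 5, 5 and 4 of 16 fits, TK1 in 3, and ORC6, POLA1 and LIG1 in 1 each. POLD1 was lost in 8 of 16.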

How the results depend on the processing

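Over all 10 comparisons there were 127 calls of a member, of which 73 passed in every alternative fit, and 0 changed direction in any limma fit. With all arrays kept, the total of members past the threshold moved by 1.5 times or more in 3 comparisons, while counts of rises or falls also moved in others. For Y15 against untreated the count was 1 and became 0 with background subtraction, with array weights and in a fit of the compared groups only (4, 3 and 3 members at an unadjusted p under 0.05). For Y15 plus lapatinib against lapatinib it was 6 and became 2 with background subtraction, 2 with the replicate block, 4 with an intensity trend and 9 with array weights. For the interaction of Y15 and lapatinib it was 1 and became 0 with background subtraction and 0 with the replicate block (6 and 5 at an unadjusted p under 0.05). The cause was not tested.

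With 1 array left out at a time, the count ran from 0 to 2 for Y15 against untreated, 13 to 20 for PF04554878 against untreated, 12 to 19 for lapatinib against untreated, 14 to 18 for Y15 plus lapatinib against untreated and 17 to 23 for PF04554878 plus lapatinib against untreated. It ran from 2 to 3 for Y15 plus lapatinib against lapatinib, 1 to 3 for PF04554878 plus lapatinib against PF04554878, 15 to 18 for Y15 against PF04554878, 0 to 3 for the interaction of Y15 and lapatinib and 12 to 19 for that of PF04554878 and lapatinib. Fewer arrays in the fit bear on these counts by construction.

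Replicate numbers are shared between groups in the labels without a stated meaning. Deviations of same-numbered arrays correlated with r from -0.331 to 0.131 over 10 pairs of groups, above 0.1 in 1 of them, so the numbers were not taken to pair the arrays. The block gave 6 calls for PF04554878 plus lapatinib against PF04554878, where the fit without it gave 7. Of 49 differences on a further probe of a called gene, 44 had the sign of the probe used.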
